A study of Mus musculus with 167 samples.

Results

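The genes described here are the lysosomal cysteine cathepsins Ctsb, Ctsc, Ctsh, Ctsk, Ctsl, Ctss and Ctsz, the aspartic protease Ctsd, the serine carboxypeptidase Ctsa and the asparaginyl endopeptidase legumain, Lgmn. They were taken by symbol: each is the row of the count table whose Ensembl identifier carries that name, which gave 10 genes of 57010 identifiers. All 10 were found, and their levels were read in every one of the 41 sample groups. They lie on several chromosomes in mm10, with Ctsk (chr3:95499256-95509362, plus strand) and Ctss (chr3:95526786-95556403, plus strand) as neighbours 17423 bp apart.

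Cathepsins and legumain are made as inactive proenzymes, carried to the lysosome by mannose 6-phosphate receptors and cleaved there to the active form. Together they break down proteins delivered by endocytosis and autophagy. In antigen presenting cells they also cut the invariant chain (Cd74) in steps, which frees the groove of MHC class II molecules for peptides. Cathepsin S does the late cut in dendritic cells and B cells, and cathepsin L does it in the cortical epithelium of the thymus. Dendritic cells are known for a restrained lysosomal proteolysis compared with macrophages, which preserves peptides for presentation.

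RNA libraries were sequenced from mouse cells, each from an extraction of 5000 sorted cells, in 41 groups of 3 to 5. Mouse embryonic fibroblasts (MEFs) were transduced by lentivirus with 3 transcription factors at once, named PIB (Pu.1, Irf8, Batf3), PIP (Pu.1, Irf4, Prdm1) or SII (Spib, Irf8, Ikzf2), and were sorted on day 3, 6 or 9. The sort took live cells with CD45, with the reporter, or with both, and the last are called double positive here. The reference groups were untransduced fibroblasts without CD45 and reporter, and wildtype spleen cDC1 (CD11c+MHC-II+XCR1+CD11b-), cDC2 (CD11c+MHC-II+CD11b+XCR1-) and pDC (CD11c+Siglec-H+B220+BST2+). PIB, PIP and one of the SII series (C9a.SII) were made in C9a.MEF fibroblasts, double homozygous for Clec9a Cre and for a Rosa26 tdTomato reporter, and the other SII series (hCD2.SII) in hCD2.MEF fibroblasts, heterozygous for hCD2 Cre and for a Rosa26 YFP reporter. The untransduced controls carry the same alleles as the transduced cells of their line. The reporter marks past activity of the Clec9a or the hCD2 driven Cre, and the double positive gate therefore selects cells on that driver and on CD45.

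Levels are given as CPM, each count relative to the library total, as mean ± SD over libraries, and differences as log2 fold changes ± SE from edgeR's quasi-likelihood test. A gene is said to rise or fall, or to be called, where the adjusted p was under 0.05 and the change at least 2-fold. Library totals ran from 1146927 to 21976374 counts, so that a library with no count allowed up to 0.137 to 2.62 CPM (3 counts of its total, counting error only). The summed level of 10 fibroblast markers was 19081 to 20409 CPM in C9a.MEF and 17557 to 20185 CPM in hCD2.MEF, and at most 46.8 CPM in cDC1 and 30.6 CPM in cDC2. Genes of the proteins that the spleen cells were sorted on followed the gates. Xcr1 was at a mean of 255 CPM in cDC1 and 3.70 CPM in cDC2, and Siglech at 2153 CPM in pDC and 1.19 CPM in cDC1. Clec9a was at 0 in every C9a.MEF library and at a mean of 0.0320 CPM in PIB day 9 double positive cells, against 654 CPM in cDC1. Some libraries stood apart from their group. By the summed fibroblast markers these were pDC replicate 1 (1180 CPM, the other 4 at 21.1 to 101.2 CPM), hCD2.SII day 9 double positive replicate 1 (10248 CPM, the other 2 at 904 and 994 CPM), PIP day 3 double positive replicate 3 and PIP day 6 double positive replicate 4, and C9a.SII day 9 double positive replicate 1 was the shallowest library. In 3 reporter-gated (tdT+) libraries, PIB day 6 replicate 4, PIP day 3 replicate 5 and C9a.SII day 6 replicate 5, the transduced factors went against the label, and they entered none of the comparisons between groups below. In the PIP one Irf4 was at 3.94 CPM, against 622 to 701 CPM in the other 4. For some of the results that rest on such a library the value without it is given beside it.

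Over the 41 groups the members differed in how widely their levels ranged. Ctsz varied least, from a mean of 113.7 CPM in cDC1 to 917 CPM in PIP day 9 CD45-gated cells, 8.06-fold. Ctsa, Ctsb, Ctsc and Ctsh each spanned at most 34.4-fold, Lgmn 86.6-fold, Ctsl 257-fold and Ctsd 1775-fold. Ctsk ranged from 0.221 CPM in cDC2 to 2118 CPM in PIP day 3 tdT+ cells, and that group was at 2645 CPM without replicate 5, the library labelled PIP whose factors went against it (7.67 CPM). Ctss ranged from 0 in C9a.MEF to 726 CPM in cDC2. Ctsa, Ctsb, Ctsc, Ctsh, Ctsz and Lgmn were over 10 CPM in every library, Ctsk in 99 libraries, and Ctss in most but not all. The lowest group mean was that of cDC1 for Ctsa, Ctsb, Ctsc, Ctsd, Ctsz and Lgmn. The highest was a PIP group for 6 members (Ctsa, Ctsb, Ctsd, Ctsk, Ctsz and Lgmn), a PIB group for Ctsc and pDC for Ctsh.

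**Figure D1:**
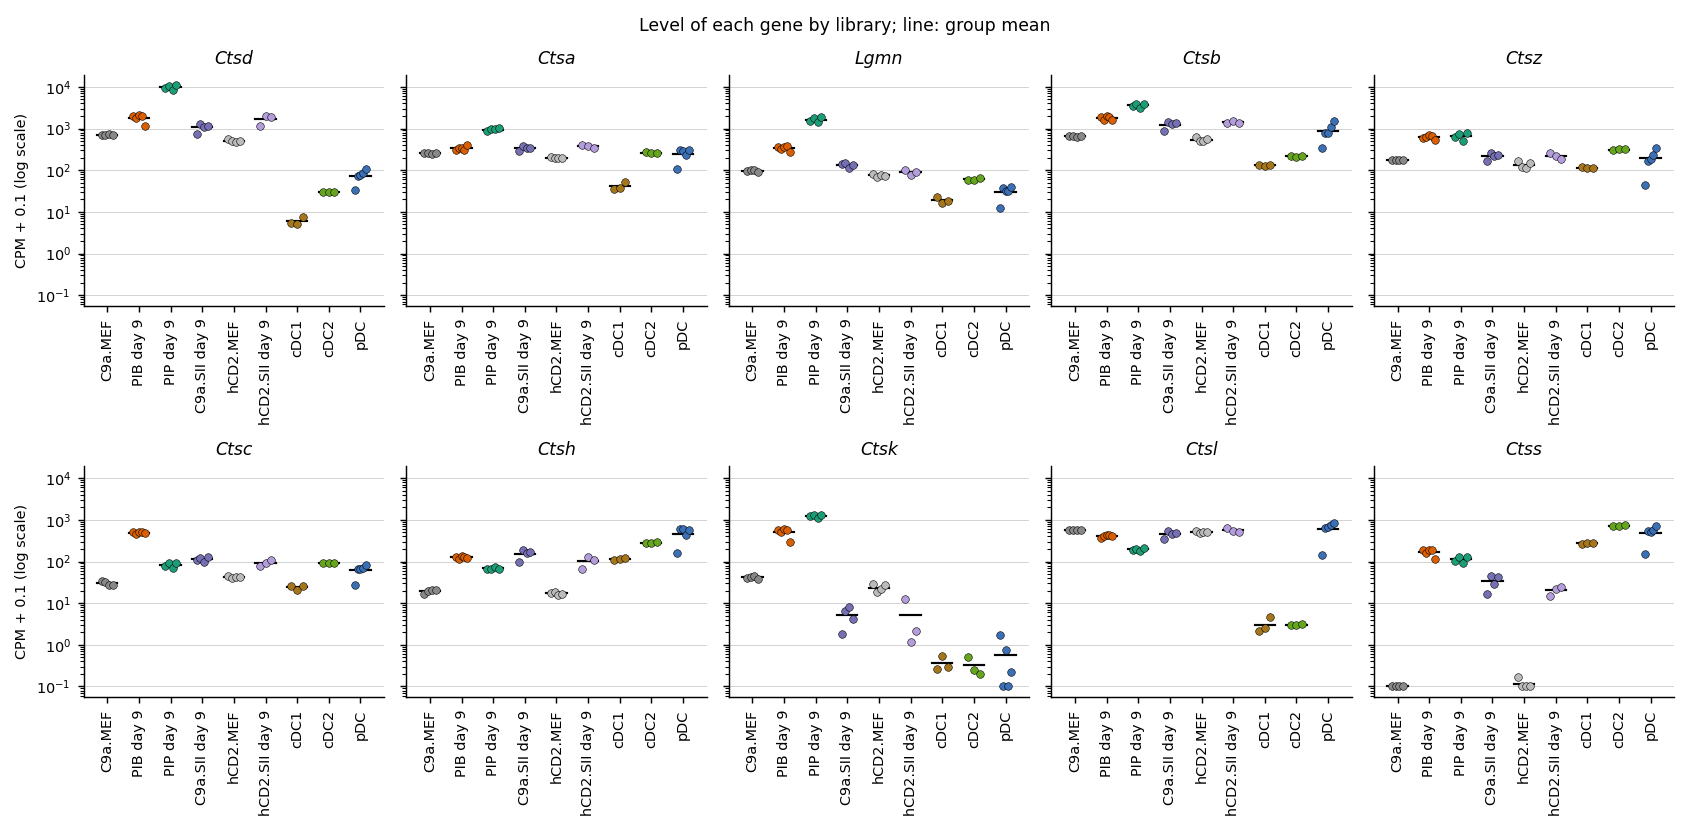
Levels of the 10 genes in 9 groups, 1 panel per gene, on a log axis of CPM + 0.1; points are libraries and the line is the group mean, and "day 9" stands for double positive cells. Ctsd and Lgmn are highest in PIP cells, Ctsc in PIB cells, Ctss in the spleen groups, and Ctsl is under 5 CPM in every cDC1 and cDC2 library.

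Promoters of 8 of the 10 genes were found in the RefSeq table (GRCm38.p6, the assembly called mm10), 10 promoters of 250 bases before and 50 after a start site, and Ctsb and Ctsh were not matched. They were searched on both strands for GTCACGTG, the core of the element bound by the lysosome gene regulators of the TFEB family, for GAGGAAGT, a PU.1 box, and for a composite site (GGAA, any 2 bases, then GAAA) of an ETS factor such as PU.1 or Spib with an IRF. GTCACGTG stood in 3 of the 10 promoters and 3 of the 8 genes, Ctsa, Ctsd and Lgmn, at 5 places. It stands in 2.25% of all 32851 promoters of that length. GAGGAAGT stood in Ctsc and Ctss (3.20% of all promoters) and the composite site in none of the 10 (2.72%). GTCACGTG and its reverse complement share the letters CACGTG, and GAGGAAGT and the composite site share GGAA, so that matches could overlap, but the printed matches lie apart. All matches are shown, so that their places can be compared. The promoters of Ctsk, Ctsl and Ctsz held none of the 3 motifs, and a link between the motifs and the levels was not tested. The letters run 5′ to 3′ in the direction of the gene, capitals mark the match, and positions are counted from the start site.
Ctsd at -98: gcccgcgtctCACGTGACccgttgaggg
Ctsd at -245: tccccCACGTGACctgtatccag
Ctsa at -14: tgagcaaactGTCACGTGatgcagatgc
Ctsa at +6: tgcagatgctCACGTGACcagagctaca
Lgmn at -51: tggaatgtctGTCACGTGgtccatttta
Ctss at -2: atgaaagttcACTTCCTCattgtggatg
Ctsc at -151: tcactaactaACTTCCTCaggccacctc
The printed stretches are, in GRCm38.p6, chr7:142387908-142387935 and chr7:142388055-142388077 for Ctsd and chr12:102439126-102439153 for Lgmn, all on the minus strand. Those of Ctsa are chr2:164833749-164833776 and chr2:164833768-164833795, that of Ctss is chr3:95526774-95526801 and that of Ctsc is chr7:88277924-88277951, all on the plus strand. The Ctsa and Lgmn matches belong to the second listed start site of each gene, and the first had none. A match is a run of letters only, and binding was not measured.

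Day 9 double positive cells were compared with the untransduced fibroblasts of their line. The cells differ in the factors, in transduction and in the sort on CD45 and reporter, and these cannot be told apart here. PIB cells had higher levels of 8 of the 10 genes and lower levels of none, where 10.4% of all genes tested were called higher, 11.4% lower and 21.8% in either direction. PIP cells had 9 higher and 1 lower, where 15.2% were called higher, 14.5% lower and 29.6% in all. C9a.SII cells had 4 higher and 1 lower (10.5%, 10.9% and 21.4% over all genes), and hCD2.SII cells had 5 higher and none lower (10.8%, 8.41% and 19.2%). The median log2 fold change of the 10 genes was 1.89 in PIB, 2.42 in PIP, 0.63 in C9a.SII and 1.006 in hCD2.SII cells, beside medians over all genes tested of -0.00, 0.05, 0.03 and 0.01 in the same order. The counts include Ctss, which had at most 1 count in the fibroblasts of a line and passed the filter on low counts only through the day 9 cells, so that its calls are a description and no support. PIB, PIP and C9a.SII were set against the same 4 C9a.MEF libraries, so their values stand side by side and are not independent of each other. In bulk RNA a lower share of cells that express a gene and less of its RNA per cell cannot be told apart.

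Ctsd, the main aspartic protease of the lysosome, and Lgmn, which also processes other cathepsins to their mature chains, were much higher in PIP cells. Ctsd stood at 703, 696, 752 and 702 CPM in the C9a.MEF libraries and at 9441, 10651, 8254 and 11084 CPM in PIP day 9 libraries. The lowest PIP library was far above the highest fibroblast library, and the log2 fold change was 4.01 ± 0.07 (SE, edgeR adjusted p = 2.6e-17). In PIB cells Ctsd was 1973, 1801, 2063, 1951 and 1137 CPM, with replicate 5 below the other 4 and still above every fibroblast library, and rose by 1.39 ± 0.18 (SE, edgeR adjusted p = 1.2e-04). C9a.SII libraries held 747, 1302, 1102 and 1136 CPM, and in CPM only the first, replicate 1, overlapped the fibroblasts. The difference of 0.67 ± 0.09 (SE, edgeR adjusted p = 1.7e-04) stayed under 2-fold. In hCD2.SII cells Ctsd rose by 1.72 ± 0.19 (SE, edgeR adjusted p = 5.9e-04), from 562, 494, 477 and 506 CPM in hCD2.MEF to 1141, 2024 and 1905 CPM, and replicate 1, the library with high fibroblast markers, was the lowest. Lgmn went from 94.4, 98.6, 100.3 and 92.9 CPM in C9a.MEF to 1479.6, 1744, 1471 and 1901 CPM in PIP cells, a log2 fold change of 4.32 ± 0.07 (SE, edgeR adjusted p = 4.6e-18). PIB libraries lay between these, at 358, 325, 370.3, 384 and 269 CPM, and rose by 1.89 ± 0.11 (SE, edgeR adjusted p = 3.4e-08). SII cells stayed near their fibroblasts, with Lgmn at 136.3 ± 16.2 CPM (SD, n = 4) in C9a.SII (log2 difference 0.60) and 89.5 ± 13.9 CPM (SD, n = 3) in hCD2.SII (0.25), where the libraries overlapped those of hCD2.MEF.

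Ctsa, the carboxypeptidase that protects the sialidase Neu1 and beta-galactosidase in their complex, was called in PIP cells and in no other day 9 group. It was 254, 258, 244 and 253 CPM in C9a.MEF and 879, 953, 955 and 1007 CPM in PIP cells, with no overlap, and rose by 2.14 ± 0.05 (SE, edgeR adjusted p = 2.2e-16). In PIB and C9a.SII cells it was 341 ± 33.99 CPM (SD, n = 5) and 335 ± 37.4 CPM (SD, n = 4), log2 differences of 0.50 and 0.50 that passed the adjusted p but not 2-fold. In hCD2.SII cells the difference was 0.89 ± 0.09 (SE, edgeR adjusted p = 4.2e-04), also under 2-fold, with the 3 libraries above every hCD2.MEF library.

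Among the cysteine endopeptidases Ctsb, Ctsk, Ctss and Ctsl moved in different directions. Ctsb, which cuts both within chains and at their ends, was 646, 658, 635 and 655 CPM in C9a.MEF, 1855, 1612, 1982, 1877 and 1635 CPM in PIB and 3386, 3884, 3121 and 3985 CPM in PIP cells, so that the 3 groups did not overlap. It rose by 1.53 ± 0.07 (SE, edgeR adjusted p = 1.0e-09) in PIB and by 2.69 ± 0.06 (SE, edgeR adjusted p = 2.0e-16) in PIP cells. In C9a.SII cells it was 870.2, 1462, 1275 and 1352 CPM and rose by 1.02 ± 0.09 (SE, edgeR adjusted p = 3.9e-06), just past 2-fold. That call ended without any one of the 4 C9a.MEF libraries or without C9a.SII replicate 2, where the value was 0.96 to 0.996, and also with 1 fit over all groups (0.88) and with no filter on low counts (0.90). In hCD2.SII cells Ctsb went from 541 ± 52.3 CPM (SD, n = 4) to 1404 ± 90.8 CPM (SD, n = 3), a rise of 1.37 ± 0.11 (SE, edgeR adjusted p = 1.7e-04). Ctsk, the collagen-cleaving cathepsin of osteoclasts, rose in PIB and PIP cells and was lower in SII cells. It was 40.8, 43.3, 44.8 and 38.1 CPM in C9a.MEF, 585, 506, 588, 558 and 288 CPM in PIB and 1227, 1284, 1094 and 1337 CPM in PIP cells, and the log2 fold changes were 3.67 ± 0.25 (SE, edgeR adjusted p = 2.7e-06) and 5.11 ± 0.07 (SE, edgeR adjusted p = 1.1e-18). The lowest PIB library, replicate 5, was still well above the fibroblasts. In C9a.SII cells Ctsk fell to 1.74, 6.27, 7.79 and 4.07 CPM, a change of -2.80 ± 0.21 (SE, edgeR adjusted p = 1.8e-06).

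In hCD2.SII cells Ctsk was 12.5, 1.05 and 2.04 CPM against 27.98, 18.6, 21.3 and 26.6 CPM in hCD2.MEF, with replicate 1 nearest to the fibroblasts, and the difference of -2.10 ± 0.72 (SE, edgeR adjusted p = 0.0586) was not called. Without replicate 1, in which the fibroblast markers summed to 10248 CPM, it was -4.02 (edgeR adjusted p = 5.8e-08). With all libraries it was called by DESeq2's Wald test (-2.18, adjusted p = 0.0031) and with 1 edgeR fit over all groups (-2.19, adjusted p = 0.0491). Osteoclast markers (9 genes) summed to 375 to 491 CPM in PIP cells, 108.1 to 120.1 CPM in PIB cells, 110.5 to 128.4 CPM in C9a.MEF and 50.6 to 96.8 CPM in C9a.SII cells, where Ocstamp was at 0. Of the osteoclast markers tested against C9a.MEF, 3 of 6 were called higher in PIB cells, among them Atp6v0d2 at 1.28 CPM and Ocstamp at 2.08 CPM. In PIP cells 5 of 7 were called higher, among them Dcstamp at 5.82 CPM and Oscar at 15.6 CPM, and Itgb3 was called lower. Over all genes 10.4% were called higher in PIB cells, and 15.2% higher and 14.5% lower in PIP cells. All 3 PIB calls and most higher PIP calls were of genes that passed the low-count filter only through the day 9 cells. Those calls are a description and no support. The part of the osteoclast markers in the Ctsk difference was not tested.

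Ctss, which makes the late cut of the invariant chain in dendritic cells, had no count in any of the 4 C9a.MEF libraries. It was 186, 158.2, 184, 184 and 115.9 CPM in PIB cells, 105.3, 127.96, 92.4 and 130.2 CPM in PIP cells and 16.6, 44.4, 28.4 and 42.9 CPM in C9a.SII cells. Against the limit of 3 counts over the C9a.MEF group, 0.0652 CPM, it was at least 2543-fold higher in PIB, at least 1748-fold in PIP and at least 507-fold in C9a.SII cells. In hCD2.MEF 1 count was found in 1 of 4 libraries, and hCD2.SII cells had 14.6, 21.8 and 24.1 CPM, a ratio of 1008 (95% counting interval 181 to 39796). The PIB and PIP libraries of Ctss overlapped, and both lay above all SII libraries.

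Ctsl, the endopeptidase that takes the place of cathepsin S in thymic epithelium, was abundant in fibroblasts and was the member that fell in PIP cells. It was 567, 583, 581 and 575 CPM in C9a.MEF and 193, 203, 182 and 211 CPM in PIP cells, without overlap, a change of -1.32 ± 0.04 (SE, edgeR adjusted p = 6.0e-14). In PIB cells (358, 399, 428, 421 and 410.0 CPM) it was lower by less than 2-fold, -0.46 ± 0.05 (SE, edgeR adjusted p = 2.9e-06). C9a.SII cells had 457 ± 81.3 CPM (SD, n = 4) and hCD2.SII cells 556 ± 57.9 CPM (SD, n = 3), log2 differences of -0.25 and 0.13, and the hCD2.SII libraries overlapped those of hCD2.MEF.

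Of the exopeptidases, Ctsc and Ctsh rose in all 4 groups and Ctsz in PIB and PIP cells. Ctsc, the dipeptidyl peptidase that activates granule serine proteases, was highest in PIB cells, at 517, 459, 506, 509.6 and 486 CPM against 34.2, 33.03, 27.4 and 26.99 CPM in C9a.MEF, and rose by 4.09 ± 0.09 (SE, edgeR adjusted p = 8.5e-13), the largest change of the 10 genes there after Ctss. PIP cells had 75.99, 93.2, 71.7 and 91.1 CPM and a rise of 1.67 ± 0.09 (SE, edgeR adjusted p = 9.1e-11), and C9a.SII cells 107.2, 122.1, 99.6 and 124.99 CPM and a rise of 1.99 ± 0.11 (SE, edgeR adjusted p = 1.3e-07). In hCD2.SII cells (78.4, 91.96 and 107.2 CPM, against 45.6, 39.96, 42.1 and 41.3 in hCD2.MEF) the rise was 1.12 ± 0.12 (SE, edgeR adjusted p = 5.4e-04), and under 2-fold without replicate 3 (0.99), with 1 fit over all groups (0.95) and with no filter on low counts (0.93). Ctsh, an aminopeptidase, was low in both fibroblast lines, 16.4, 19.5, 20.5 and 20.1 CPM and 17.7, 18.2, 15.98 and 16.3 CPM, and rose in all 4 day 9 groups. Its levels were 126.6 ± 6.90 CPM (SD, n = 5) in PIB, 67.97 ± 3.61 CPM (SD, n = 4) in PIP, 151.2 ± 39.8 CPM (SD, n = 4) in C9a.SII and 101.6 ± 32.2 CPM (SD, n = 3) in hCD2.SII cells. The largest log2 fold change of Ctsh was that of C9a.SII cells, 3.07 ± 0.14 (SE, edgeR adjusted p = 3.3e-08), followed by 2.79 in PIB, 2.57 in hCD2.SII and 2.05 in PIP cells, all called. Ctsz, a carboxypeptidase, was 177, 177, 171 and 176 CPM in C9a.MEF, 601, 614, 691, 651 and 544 CPM in PIB and 627, 755, 513 and 789.6 CPM in PIP cells. It rose by 1.89 ± 0.07 (SE, edgeR adjusted p = 1.3e-10) in PIB and 2.16 ± 0.10 (SE, edgeR adjusted p = 9.8e-09) in PIP cells, while C9a.SII (221 CPM) and hCD2.SII cells (220.4 CPM) differed from their fibroblasts by 0.42 and 0.68, under 2-fold.

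**Figure D2:**
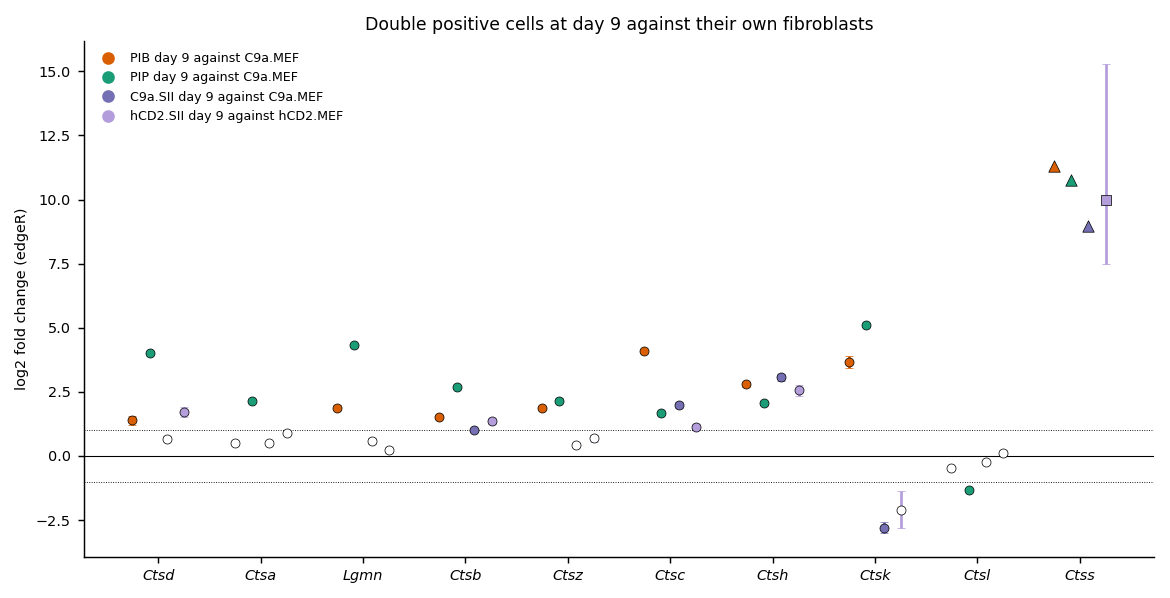
Log2 fold change of each gene in day 9 double positive cells over the untransduced fibroblasts of the same line, with SE bars; filled points were called, open points were not, and dotted lines mark 2-fold. Triangles for Ctss are lower bounds against 0 counts and the square is a count ratio with its 95% counting interval. Ctsh, Ctsb and Ctsc rose in all 4 groups, and Ctsk lies above 0 in PIB and PIP and below 0 in both SII groups.

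Other cell types in the sorted gates would carry their own cathepsins, and their markers were read beside these results. Macrophage and monocyte markers (10 genes) summed to 820.1 to 1235 CPM in PIB cells, most of it Lyz2 at a mean of 805 CPM, to 121.2 to 153.9 CPM in PIP cells and to 8.36 to 10.5 CPM in C9a.MEF. In C9a.SII cells the sum was 69.2 to 228 CPM in 3 libraries and 2136 CPM in replicate 1, and in hCD2.SII cells 28.3 to 91.7 CPM. B cell, T and NK cell and granulocyte markers summed to at most 10.1 CPM in any day 9 double positive library. Fibroblast markers were 6586 to 7947 CPM in PIB, 1145 to 1394 CPM in PIP and 2474 to 2782 CPM in C9a.SII cells, so that PIB cells, with the highest Ctsc, also kept the highest fibroblast sum of the 3. The part of such cells in the results was not tested.

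The balance of Ctss to Ctsl was expressed per library as log2 of (Ctss CPM + 1) over (Ctsl CPM + 1), where 1 is a pseudocount, and only differences between groups are read, since the genes differ in length. It was lowest in the fibroblasts, at -9.17 ± 0.017 (SD, n = 4) in C9a.MEF and -8.96 ± 0.062 (n = 4) in hCD2.MEF. Day 9 cells were at -1.30 ± 0.32 (n = 5) in PIB, -0.80 ± 0.15 (n = 4) in PIP, -3.83 ± 0.38 (n = 4) in C9a.SII and -4.74 ± 0.51 (n = 3) in hCD2.SII cells. Spleen cDC1 and cDC2 stood at 6.17 ± 0.40 and 7.54 ± 0.025 (n = 3 each), and pDC at -0.27 ± 0.23 (n = 5). Every day 9 double positive library lay above every fibroblast library and below every spleen library, and those of PIB and PIP cells came nearest to pDC. The difference from the fibroblasts was 7.88 in PIB, 8.38 in PIP, 5.35 in C9a.SII and 4.22 in hCD2.SII cells, with two-sided exact permutation p-values of 0.0159, 0.0286, 0.0286 and 0.0571. As Ctss of the fibroblasts was at or near 0, the pseudocount sets the size of these 4 differences: it was 11.19, 11.69, 8.62 and 7.31 with a pseudocount of 0.1, and 4.62, 5.12, 2.40 and 1.45 with 10. Between cDC1 and pDC it was 6.44 and between cDC2 and pDC 7.81 (exact permutation p = 0.0357 each), and between cDC1 and cDC2 -1.37 (exact permutation p = 0.1). Each of these is the smallest p its group sizes allow. Adjusted over the 7 comparisons they were 0.05 for 5, 0.0667 for hCD2.SII and 0.1 for cDC1 against cDC2, so none was under 0.05 by this test.

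**Figure D3:**
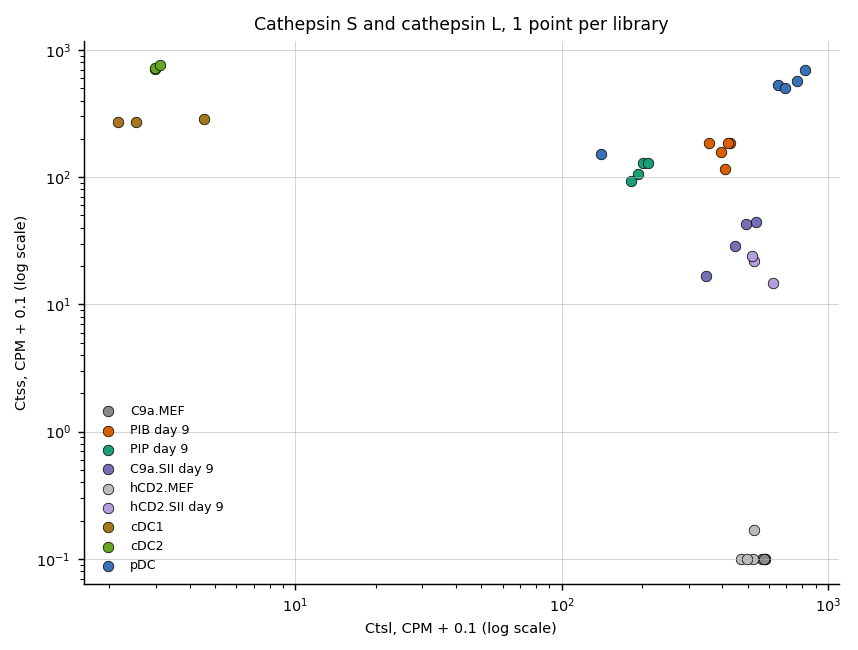
Ctsl (x) against Ctss (y) in single libraries of 9 groups, both as CPM + 0.1 on log axes. Fibroblasts lie at the lower right with no or almost no Ctss, cDC1 and cDC2 at the upper left with Ctsl under 5 CPM, and PIB, PIP and pDC libraries at the upper right.

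Between factor sets at day 9, PIB and PIP cells differed in 6 of the 10 genes, 1 higher and 5 lower in PIB, where 21.6% of all genes were called. Ctsc was the gene higher in PIB, by 2.44 ± 0.08 (SE, edgeR adjusted p = 3.7e-11), with the lowest PIB library far above the highest PIP library. Ctsd, Lgmn, Ctsa, Ctsk and Ctsb were lower in PIB, by log2 differences of -2.60 ± 0.18, -2.40 ± 0.11, -1.62 ± 0.07, -1.42 ± 0.20 and -1.14 ± 0.09, and none of their libraries overlapped. The Ctsk call ended with 1 fit over all groups (-1.36, edgeR adjusted p = 0.136). Ctsh and Ctsl were higher in PIB by less than 2-fold (0.76 and 0.89), and Ctss and Ctsz overlapped between the 2 groups. PIB exceeded C9a.SII in Ctsk (6.52 ± 0.39), Ctss (2.29 ± 0.23), Ctsc (2.10 ± 0.09), Ctsz (1.47 ± 0.10) and Lgmn (1.29 ± 0.15), 5 of the 10 genes. Of all genes 18.5% were called, 1375 higher and 1593 lower in PIB. Ctsa overlapped, with a log2 difference of -0.01. PIP exceeded C9a.SII in 7 genes, most in Ctsk (7.98 ± 0.33), Lgmn (3.71 ± 0.14) and Ctsd (3.34 ± 0.12), and was below it in Ctsl (-1.08 ± 0.09) and Ctsh (-1.01 ± 0.13), where 22.5% of all genes were called. The Ctsh call ended, at -0.9997 to -0.92, without C9a.SII replicate 2 or 4 or without PIP replicate 1, 2 or 4, and also with 1 fit over all groups (-0.95) and with no filter on low counts (-0.95). The Ctsl call ended with 1 fit over all groups (-0.999). The 3 comparisons share their groups pairwise.

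Double positive cells of day 9 and day 3 were compared to see whether the levels were reached early. In PIB cells only Ctss was called among the 10 genes, where 12.1% of all genes were. It was 68.1, 65.3, 43.5 and 53.7 CPM on day 3 and 186, 158.2, 184, 184 and 115.9 CPM on day 9, a rise of 1.32 ± 0.15 (SE, edgeR adjusted p = 9.9e-05), and day 6 stood at 157.4 ± 7.61 CPM (SD, n = 4). Ctsc was already 334 ± 55.9 CPM (SD, n = 4) on day 3 and 528 ± 13.3 CPM (SD, n = 4) on day 6, and its later change was 0.36. Lgmn (0.02) and Ctsk (-0.15) overlapped between the days, and Ctsb, Ctsh and Ctsz were higher on day 9 by 0.76, 0.72 and 0.73, under 2-fold.

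In PIP cells 5 of the 10 genes rose from day 3 to day 9, where 6.21% of all genes were called, 515 higher and 467 lower. Ctss was 35.4, 34.8 and 5.002 CPM on day 3, 99.3, 98.1, 100.8 and 32.1 CPM on day 6 and 105.3, 127.96, 92.4 and 130.2 CPM on day 9, and rose by 2.23 ± 0.57 (SE, edgeR adjusted p = 0.0404). Ctsd was 5188, 5752 and 2747 CPM on day 3 and 9441, 10651, 8254 and 11084 CPM on day 9 (1.198 ± 0.27 SE, edgeR adjusted p = 0.0216), and Lgmn 843, 901 and 353 CPM and 1479.6, 1744, 1471 and 1901 CPM (1.32 ± 0.33 SE, edgeR adjusted p = 0.0343). Day 3 replicate 3 was the lowest library for each of these genes, and its fibroblast markers summed to 5938 CPM against 3036 and 3126 CPM in the other 2. Ctsh rose by 1.26 ± 0.10 (SE, edgeR adjusted p = 1.6e-04) and Ctsb by 1.011 ± 0.24 (SE, edgeR adjusted p = 0.0259). Without day 3 replicate 3 Ctsd was at 0.91, Lgmn at 0.98 and Ctsb at 0.74, all under 2-fold, and Ctsk, at -0.66 and not called with all libraries, was at -1.01 and called lower (edgeR adjusted p = 8.8e-07). Leaving out any other library ended the Ctss call, at 2.18 to 2.58 (edgeR adjusted p from 0.0623 to 0.093). Leaving out any day 9 library ended the calls of Lgmn and Ctsb, as day 3 replicate 1 did for Lgmn (edgeR adjusted p = 0.0548). Leaving out day 9 replicate 1, 2 or 4 ended that of Ctsd, and the edgeR adjusted p under these day 9 omissions ran from 0.0571 to 0.0832. Ctsc, at 0.96 and not called, was called at 1.02 to 1.03 without day 3 replicate 1 or 2. With 1 fit over all groups the calls of Ctsb, Ctsd and Lgmn ended (edgeR adjusted p from 0.0802 to 0.152), and with no filter on low counts those of Ctsd, Ctss and Lgmn (edgeR adjusted p from 0.178 to 0.229) and of Ctsb (0.99). The Ctsh call was kept under each of these alternatives.

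The day 9 to day 3 change differed between PIB and PIP cells for Lgmn, -1.27 ± 0.35 (SE, edgeR adjusted p = 0.0223) in 1 fit with an interaction term, where 10.6% of all genes were called. It was 0.02 in PIB and 1.32 in PIP cells. Without PIP day 3 replicate 3 it was -0.84, under 2-fold. No other gene of the 10 was called in that fit, and Ctsa (-0.81), Ctsl (0.61), Ctsc (-0.57) and Ctsh (-0.52) passed the adjusted p below 2-fold. Ctss, called in both series, had an interaction of -0.88 ± 0.56 (SE, edgeR adjusted p = 0.285).

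In neither SII series was a member called between day 3 and day 9, where 0.103% of all genes were called in C9a.SII and 6.55% in hCD2.SII cells (edgeR, 16 and 1051 genes). Unadjusted, 1621 of 15541 genes in C9a.SII had a p under 0.05, and DESeq2's Wald test called 215 there. Ctss of C9a.SII cells was 27.02, 8.54, 22.4 and 6.12 CPM on day 3 and 16.6, 44.4, 28.4 and 42.9 CPM on day 9. In CPM these overlapped only through day 9 replicate 1, the shallowest library. Ctss of hCD2.SII cells was 18.01 ± 3.89 CPM (SD, n = 4) on day 3 and 20.2 ± 4.96 CPM (SD, n = 3) on day 9. Ctsh of C9a.SII and hCD2.SII cells was at 102.4 ± 38.9 CPM (SD, n = 4) and 96.7 ± 4.81 CPM (SD, n = 4) on day 3. On day 6 it was at 171 ± 23.4 CPM (SD, n = 4) and 131.004 ± 21.5 CPM (SD, n = 3). Ctsk was already low on day 3, 4.08, 1.52, 3.29 and 3.75 CPM in C9a.SII and 5.73, 5.94, 2.79 and 3.80 CPM in hCD2.SII cells. In hCD2.SII cells Ctsz, Ctsc and Lgmn were lower on day 9 by log2 -0.72, -0.61 and -0.59, under 2-fold, and without day 9 replicate 1 Ctsk was called lower (-1.63).

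**Figure D4:**
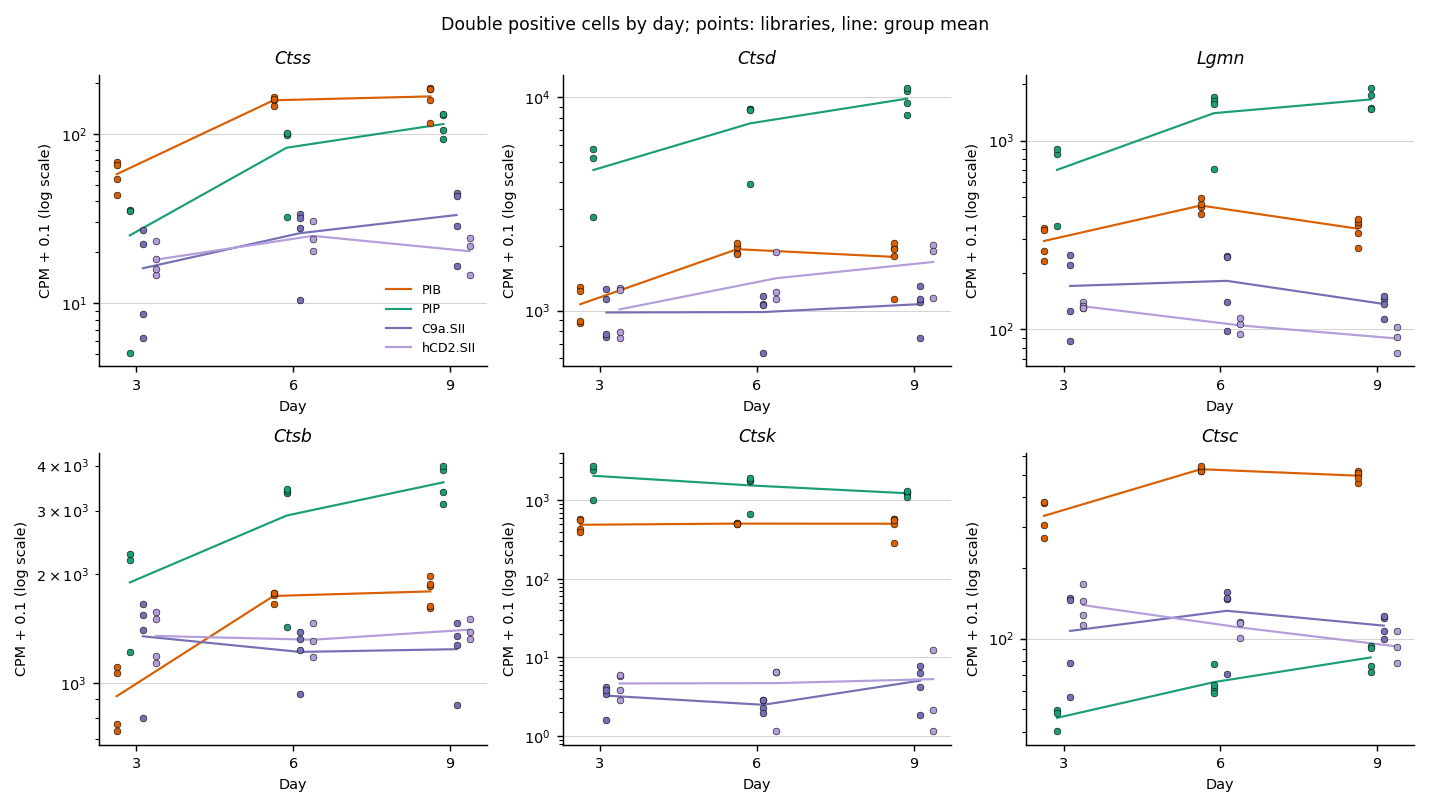
Levels of Ctss, Ctsd, Lgmn, Ctsb, Ctsk and Ctsc on days 3, 6 and 9 in double positive cells of 4 series, on a log axis of CPM + 0.1; points are libraries and lines join group means. Ctss, Ctsd and Lgmn of PIP cells are higher on day 9 than on day 3, PIB cells hold the highest Ctsc on every day, and Ctsk of both SII series is below that of PIB and PIP on every day.

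Day 9 double positive cells were compared with cells sorted on the reporter alone, the tdT+ or YFP+ gate. In PIB cells 3 of the 10 genes were higher in double positive cells, where 1.7% of all genes were called. Ctss was 186, 158.2, 184, 184 and 115.9 CPM in double positive and 73.4, 81.5, 62.4, 62.5 and 52.3 CPM in tdT+ cells (1.35 ± 0.16 SE, edgeR adjusted p = 8.4e-04), Lgmn 358, 325, 370.3, 384 and 269 CPM and 206, 127.5, 165.7, 188 and 133.6 CPM (1.08 ± 0.16 SE, edgeR adjusted p = 0.0028), and Ctsc 517, 459, 506, 509.6 and 486 CPM and 268, 302, 229, 229 and 221 CPM (1.02 ± 0.10 SE, edgeR adjusted p = 1.8e-04). None of the 3 overlapped between the gates. The Ctsc call ended, at 0.96 to 0.98, without tdT+ replicate 4 or 5 or double positive replicate 1, and the Lgmn call, at 0.99, without tdT+ replicate 2. With 1 fit over all groups all 3 calls ended, those of Ctss and Lgmn at folds of about the same size (1.33 and 1.06, edgeR adjusted p = 0.214 and 0.28), and that of Ctsc at 0.99. In hCD2.SII cells Ctsh was 66.8, 130.4 and 107.7 CPM in double positive and 16.9, 11.98, 13.97 and 13.1 CPM in YFP+ cells (2.87 ± 0.23 SE, edgeR adjusted p = 7.2e-04), and Ctss 14.6, 21.8 and 24.1 CPM and 4.28, 4.11, 3.97 and 4.16 CPM (2.29 ± 0.19 SE, edgeR adjusted p = 7.2e-04), where 12.2% of all genes were called. Ctsd also rose, 1.104 ± 0.18 (SE, edgeR adjusted p = 0.0051), but its call ended without double positive replicate 2 (0.94), with 1 fit over all groups (0.96, edgeR adjusted p = 0.118) and with no filter on low counts (0.91). Fibroblast markers summed to 12839 to 14190.0 CPM in the YFP+ cells, in which Ctsh, at 13.97 CPM, was close to hCD2.MEF (17.02 CPM). Ctsk differed by -2.06 ± 0.71 (SE, edgeR adjusted p = 0.0722), not called, and was at -3.99 and called without replicate 1 (edgeR adjusted p = 1.7e-11), and called by DESeq2's Wald test with all libraries (adjusted p = 0.0031).

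In PIP and C9a.SII cells no member was called between these gates, where 0.0122% and 0.148% of all genes were called (edgeR, 2 of 16406 and 23 of 15586 genes). Unadjusted, 1839 and 1340 genes had a p under 0.05, and DESeq2's Wald test called 68 and 120. Ctss, Ctsc and Lgmn of PIP cells had log2 differences of 0.81, 0.88 and 0.68. In C9a.SII cells the difference of Ctss was 0.85 with overlap. In CPM the overlap came from double positive replicate 1 (16.6 CPM), as the highest tdT+ library was at 25.4 CPM and double positive replicate 3 at 28.4 CPM.

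The 3 spleen populations were compared with each other as references for the transduced cells. Between cDC1 and cDC2, 7 of 9 genes tested were lower in cDC1 and none was higher. Of all 16193 genes tested 1731 were called lower and 3905 higher, 34.8% in all. Ctsa was 36.3, 37.1 and 51.2 CPM in cDC1 and 269, 262 and 263 CPM in cDC2 (-2.66 ± 0.11 SE, edgeR adjusted p = 7.2e-15), Ctsd 5.36, 5.06 and 7.26 CPM and 30.2, 29.2 and 29.6 CPM (-2.31 ± 0.19 SE, edgeR adjusted p = 4.7e-10), and Ctss 269, 273 and 285 CPM and 705, 719 and 755 CPM (-1.38 ± 0.08 SE, edgeR adjusted p = 4.4e-13). The groups did not overlap in these genes. Ctsc, Lgmn, Ctsz and Ctsh were lower in cDC1, at log2 differences of -1.88 ± 0.12, -1.62 ± 0.15, -1.45 ± 0.09 and -1.27 ± 0.09, and Ctsb was at -0.72 ± 0.09, under 2-fold, and called with 1 fit over all groups (-1.17). Ctsl was 2.05, 2.42 and 4.44 CPM in cDC1 and 2.86, 2.86 and 2.99 CPM in cDC2, and overlapped. Ctsk was too low for the test, with 4 counts in all in cDC1 and 5 in cDC2.

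In pDC, Ctsl was 140.9, 653, 693, 764 and 819.9 CPM, against at most 4.44 CPM in the libraries of both conventional types. The difference was -7.67 ± 0.77 (SE, edgeR adjusted p = 3.1e-05) for cDC1 and -7.60 ± 0.69 (SE, edgeR adjusted p = 1.8e-05) for cDC2, the lowest pDC library being replicate 1, which had the high fibroblast markers. In all, 6 of 9 genes were lower in cDC1 than in pDC, where 1345 of 17066 genes were called lower and 1344 higher (15.8%). In cDC2, 3 were lower and 1 higher than in pDC, where 4121 of 17752 genes were called lower and 2071 higher (34.9%). Ctsb was 334, 765, 798, 1095 and 1495 CPM in pDC, 131.3 ± 3.72 CPM (SD, n = 3) in cDC1 and 218 ± 6.85 CPM (SD, n = 3) in cDC2, and was called lower in both conventional types (-2.78 and -1.96). Ctsd was 32.6, 72.7, 75.8, 83.9 and 107.9 CPM in pDC and was also lower in both (-3.65 ± 0.45 SE, edgeR adjusted p = 1.4e-04, and -1.24 ± 0.35 SE, edgeR adjusted p = 0.021). Ctsa, Ctsh and Ctsc were lower in cDC1 than in pDC (-2.53, -1.97 and -1.36), and Lgmn was higher in cDC2 than in pDC (1.08 ± 0.31 SE, edgeR adjusted p = 0.0211).

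Several of these spleen calls lost their adjusted p under 0.05, or fell under 2-fold, when 1 library was left out. Without any one cDC1 library the Ctsc and Ctsh calls against pDC ended, at -1.43 to -1.25 and -2.0003 to -1.95 (edgeR adjusted p from 0.0764 to 0.173). The Ctsc call also ended without pDC replicate 4 (edgeR adjusted p = 0.0715) and with no filter on low counts (edgeR adjusted p = 0.0867). Without any one cDC2 library the calls of Ctsb, Ctsd and Lgmn against pDC ended, with adjusted p from 0.0581 to 0.0885 (edgeR), and that of Ctsd also without pDC replicate 4, with 1 fit over all groups (-0.93) and with no filter on low counts (-0.90). Ctsz in cDC2, at 0.79 and not called, was called higher with 1 fit over all groups (1.06). Without pDC replicate 1 Ctss (-1.03) and Ctsz (-1.02) were called lower in cDC1 than in pDC, and Lgmn in cDC2 was at 0.88. Ctsl kept its calls. The SD of pDC was large for every member, for example 193 ± 105.7 CPM (SD, n = 5) for Ctsz, and replicate 1 was the lowest pDC library in 9 of the 10 genes.

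Day 9 cells were set against the spleen population that each factor set is paired with here, PIB with cDC1, PIP with cDC2 and SII with pDC. PIB cells had 8 of 10 genes higher than cDC1 and none lower, where 57.5% of all genes were called, 4833 higher and 6130 lower. Ctsd was at 1785 CPM against 5.89 CPM (8.55 ± 0.32 SE, edgeR adjusted p = 1.5e-08) and Ctsl at 403 CPM against 2.97 CPM (7.40 ± 0.17 SE, edgeR adjusted p = 4.3e-14), without overlap. Ctsh (0.44) overlapped and Ctss (-0.43) differed by less than 2-fold. PIP cells had 7 higher and 2 lower than cDC2, where 56% of all genes were called. Ctss (113.98 against 726 CPM, -2.50 ± 0.11 SE, edgeR adjusted p = 6.5e-12) and Ctsh (67.97 against 281 CPM, -1.88 ± 0.08 SE, edgeR adjusted p = 2.4e-12) were the lower ones, and Ctsc overlapped (0.05). Ctsk was higher in both comparisons, but the spleen values rest on 4 and 5 counts in all. It is among the 8 and the 7, and passed the filter on low counts only through the day 9 cells. Its calls are a description and no support.

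Both SII groups had Ctsd and Lgmn higher and Ctss and Ctsh lower than pDC, 2 and 2 of 9 genes tested, where 38.2% of all genes were called for C9a.SII and 33% for hCD2.SII. Ctss, at 488 ± 202 CPM (SD, n = 5) in pDC, was lower, with a log2 difference of -3.74 ± 0.47 (SE, edgeR adjusted p = 9.1e-05) in C9a.SII and -4.54 ± 0.57 (SE, edgeR adjusted p = 2.2e-04) in hCD2.SII cells. Ctsd was higher by 3.98 ± 0.36 (SE, edgeR adjusted p = 9.1e-06) and 4.55 ± 0.44 (SE, edgeR adjusted p = 4.9e-05), and Lgmn by 2.30 ± 0.27 (SE, edgeR adjusted p = 6.6e-05) and 1.63 ± 0.33 (SE, edgeR adjusted p = 0.0042). Ctsh was lower, at -1.47 ± 0.36 (SE, edgeR adjusted p = 0.0073), with overlap, and -2.12 ± 0.46 (SE, edgeR adjusted p = 0.006). Ctsl overlapped in both (-0.28 and -0.06). Ctsc in C9a.SII, at 0.997 and not called, was called at 1.02 to 1.13 without C9a.SII replicate 1 or 3 or pDC replicate 4 or 5, and at 1.32 with 1 fit over all groups. The 2 comparisons share the pDC libraries.

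The 2 untransduced lines were compared as a background for the SII series. None of 9 genes tested was called between hCD2.MEF and C9a.MEF, where 2.93% of all genes were (edgeR, 450 genes, with 5095 at an unadjusted p under 0.05). Ctsk (-0.79), Ctsd (-0.46) and Ctsc (0.50) differed by less than 2-fold.

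Levels of different genes were compared per length, as each gene's share of the 10 genes' summed counts per base of principal transcript. Ctsd led in both fibroblast lines and all 4 day 9 groups. Its share was 39.1% ± 1.04 (SD, n = 4) in C9a.MEF, 30.7% ± 3.01 (SD, n = 5) in PIB, 58.2% ± 0.721 (SD, n = 4) in PIP, 38.01% ± 1.36 (SD, n = 4) in C9a.SII and 48.9% ± 7.85 (SD, n = 3) in hCD2.SII cells. Ctsb came next in the fibroblasts and SII groups (15.97%, 17.1%, 19.7% and 18.7% in C9a.MEF, hCD2.MEF, C9a.SII and hCD2.SII), Ctsz in PIB (15.98%) and Lgmn in PIP cells (10.4%). In the spleen Ctss led, with 48.98% ± 0.599 (SD, n = 3) in cDC1, 47.5% ± 0.551 (SD, n = 3) in cDC2 and 29.4% ± 1.15 (SD, n = 5) in pDC. The summed CPM of the 10 genes, with no length, was 2553 ± 21.02 CPM in C9a.MEF, 6576 ± 740.5 CPM in PIB, 18418 ± 2174 CPM in PIP and 3763 ± 709 CPM in C9a.SII cells, and 730.0 ± 25.7 CPM, 1988 ± 38.9 CPM and 3075 ± 1263 CPM in cDC1, cDC2 and pDC. Without the division by length Ctsb led in hCD2.MEF, PIB, C9a.SII and pDC.

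**Figure D5:**
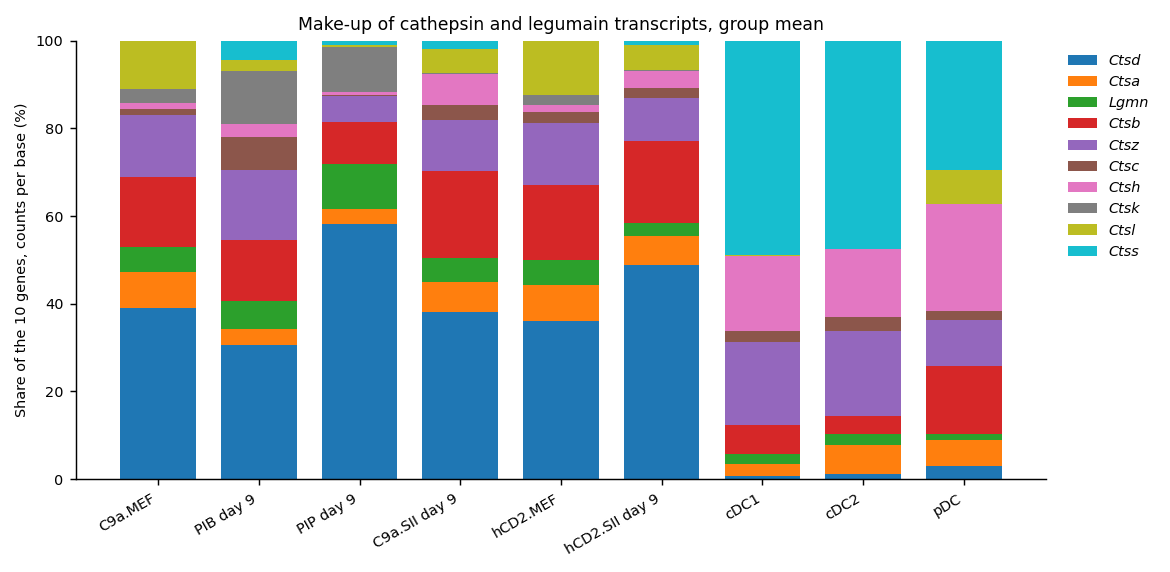
Mean share of each gene in the summed counts per base of the 10 genes, in percent, stacked to 100% for 9 groups. Ctsd takes the largest part in both fibroblast lines and the 4 day 9 groups, and Ctss in cDC1, cDC2 and pDC.

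Genes around the cathepsins were read in lists of inhibitors, other lysosomal peptidases, cofactors and sorting receptors, class II loading and lysosome gene regulators. The inhibitor list held cystatin-type genes and Serpinb genes, and whether the Serpinb genes act on the 10 members was not tested. The peptidase list also held Ppt1, a thioesterase. The counts of the lists stand beside the 10.4%, 15.2%, 10.5% and 10.8% of all genes that were called higher in PIB, PIP, C9a.SII and hCD2.SII cells. Of the genes tested on the inhibitor list, 3 of 6 rose in PIB, 4 of 6 in PIP, 1 of 6 in C9a.SII (2 fell) and 2 of 6 in hCD2.SII cells against their fibroblasts. All those called in C9a.SII cells were Serpinb genes. Cst3, the secreted cystatin C, rose by 3.43 ± 0.09 in PIB and 2.89 ± 0.06 in PIP cells (log2 ± SE), and Serpinb1a by 5.04 ± 0.32 and 5.31 ± 0.09. Of the genes tested on the peptidase list, Ppt1 included, 1 of 7 rose in PIB, 4 of 7 in PIP, 2 of 7 in C9a.SII and 2 of 8 in hCD2.SII cells. Ppt1 rose in all 4, by 1.54 ± 0.07, 1.55 ± 0.06, 1.25 ± 0.15 and 2.10 ± 0.17, and was the only one called in PIB cells. Of 13 cofactors and receptors, 3 rose in PIB, 3 rose and 1 fell in PIP, 1 rose in C9a.SII and 2 in hCD2.SII cells. Neu1, the sialidase bound by Ctsa, rose by 3.53 ± 0.07 in PIP cells, and Psap, the saposin precursor, by 2.49 ± 0.13 in PIB and 2.13 ± 0.06 in PIP cells. Of the 2 other cathepsins tested, 1 rose in PIP (Ctso, 1.54 ± 0.08) and none in PIB or C9a.SII cells, and 1 of 3 rose in hCD2.SII cells (Ctsw, 2.42 ± 0.53). Ctsw did not pass the low-count filter in PIB, PIP or C9a.SII cells against C9a.MEF.

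Of the class II loading genes tested, 7 of 7 rose in PIB, 5 of 7 in PIP, and 1 of 4 in both C9a.SII and hCD2.SII cells. Most of these calls were of genes that passed the low-count filter only through the day 9 cells, Cd74 and H2-Aa among them. Those calls are a description and no support. Cd74, the invariant chain that Ctss cuts, was at means of 737, 315, 95.8 and 52.5 CPM in PIB, PIP, C9a.SII and hCD2.SII cells, and in the fibroblasts of 0.260 (C9a.MEF) and 0.219 CPM (hCD2.MEF). It passed the filter on low counts only through the day 9 cells, so no fold is given. H2-Aa was at a mean of 68.7 CPM in PIB and 10.8 CPM in PIP cells, and at 0.0681 CPM in C9a.MEF. All 9 class II genes tested were lower in PIB than in cDC1, in PIP than in cDC2 and in both SII groups than in pDC. In the same order 57.5%, 56%, 38.2% and 33% of all genes were called, of which 6130, 4470, 3062 and 3093 genes were lower. Of 4 lysosome gene regulators, Mitf rose in PIB (2.09 ± 0.09) and hCD2.SII cells (1.58 ± 0.23), Tfeb in PIP (1.103 ± 0.11) and hCD2.SII cells (1.007 ± 0.28), and none in C9a.SII cells.

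The order of the 9 group means differed between genes. PIP day 9 cells came first for Ctsa, Ctsb, Ctsd, Ctsk and Lgmn, with no overlap with the next group, and for Ctsz, where they overlapped PIB. PIB cells came first for Ctsc, apart from the next, and second, apart from both neighbours, for Ctsb, Ctsk and Lgmn. For Ctsh pDC and cDC2 led and overlapped, followed by C9a.SII, PIB, cDC1, hCD2.SII and PIP cells, each overlapping the next, and then both fibroblast lines. For Ctsl the order pDC, C9a.MEF, hCD2.SII, hCD2.MEF, C9a.SII and PIB had overlapping neighbours throughout, and PIP and then the conventional dendritic cells stood below. For Ctss cDC2 came first, followed by pDC and cDC1, which overlapped, then PIB and PIP, which overlapped, then the SII groups and the fibroblasts.

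The genes whose group means followed each member most closely were found by Pearson's r of log2 CPM over the 41 groups, among 11704 genes, as a description. The groups share lines, gates and days and so are not independent, and 3 of them hold a library whose factors went against its label. For Ctsd they were Tpp1 (0.96), Grina (0.96) and Tmem184b (0.96), and for Lgmn Ccl12 (0.93), Neu1 (0.93) and Atp6ap2 (0.93). Tpp1 is a lysosomal tripeptidyl peptidase and Neu1 the sialidase. For Ctsa they were Slc36a1 (0.92), Wdr7 (0.89) and Tspo (0.88). Ctsb was followed by Saraf (0.94), Tmem33 (0.92) and Rnasek (0.92), Ctsk by Ifit2 (0.97), Plau (0.97) and Ccl8 (0.96) and Ctsl by Kank2 (0.96), Zfp507 (0.94) and Dcaf1 (0.94). Ctss was followed by Cd74 (0.95), Csf2rb (0.92) and March1 (0.91), of which Cd74 is the invariant chain. Ctsc was followed by Myo5a (0.91) and Arg1 (0.89), Ctsh by Pik3ap1 (0.91), Fes (0.90) and Mbnl1 (0.90) and Ctsz by Bahd1 (0.93) and Ehd4 (0.89). Over the 36 transduced groups alone 6 of the 30 closest genes were again among the 3 closest, and none of those of Ctsa, Ctsb, Ctsd, Ctsl and Lgmn was. For Ctss March1 was kept and Cd74 was not. Among the members themselves r was 0.94 for Ctsb and Ctsd, 0.89 for Ctsa and Ctsd and -0.48 for Ctss and Ctsl.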

How the data were processed

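Gene counts per library were used as deposited, in 1 table of 57010 Ensembl identifiers and 167 libraries. Per the labels' protocols, RNA of 5000 sorted cells was made into stranded total RNA libraries and sequenced on a NovaSeq X. Per the submitters' processing notes, mm10, STAR 2.7.9a and Salmon 1.10.1 were used. The counter, annotation release and strand setting are not given in the sources used here, so overlapping genes may share reads (Ctsa with Pltp, Ctsb with Fdft1, Ctsd with Gm49369, Ctsl with Gm47123 and Ctsz with Nelfcd). A table of gene names gave symbols for 52029 identifiers, and positions and lengths came from GENCODE vM21. The other 4981 held a median of 13.2% of the counts (5.98% to 32.1%), and they stayed in the totals behind CPM and in the fits. Library totals had a median of 10960122 counts.

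Each comparison was fitted on the libraries of its 2 groups with edgeR 4.0.16 (limma 3.58.1, R 4.3.3), TMM scaling, filterByExpr and the robust quasi-likelihood F test, with Benjamini-Hochberg adjustment over all genes tested. The thresholds for a call were 0.05 for the adjusted p and 2-fold for the change. There were 23 comparisons and 1 interaction fit, checked on simulated data. DESeq2 1.42.0 served as an alternative. Levels, shares and figures were made with Python 3.11.15, pandas 2.3.3, numpy 2.4.6, scipy 1.17.1 and matplotlib 3.10.9. The labels do not say whether replicates came from separate cultures or animals, so p-values measure only the spread between these libraries. The 10 genes and the lists were chosen with earlier results of these data known.

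Each of the 10 genes was tested in every comparison in which it passed the low-count filter, and not all are named for each comparison. From each list, at most the 2 called genes with the largest change in each direction and without overlap are named, and per gene the 3 genes of most like pattern (log2 CPM, prior count 2, at least 10 CPM in a group). Of these genes of like pattern, 1 each for Ctsc and Ctsz is not reported here. Alternatives were DESeq2's size factors and Wald test, no low-count filter, 1 fit over all groups, a replicate block, leaving out each library, other totals, other lengths and other pseudocounts (0.1 and 10). Union exon length and leaving out the libraries whose factors go against their label were added after seeing the data.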

Additional observations from a re-analysis of the deposited data

Results flagged for a closer look

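In groups of 4 or 5 libraries, a library was marked where its gap to the nearest other took up more of the group's range than Dixon's 95% limit. Of 160 gene and group pairs checked, 16 were marked, and chance marks about 1 in 20. PIP day 6 double positive replicate 4 was marked in 6 genes. It was lowest in Ctsb (1427 CPM, the others 3367 to 3438 CPM), Ctsd (3907 CPM, the others 8716 to 8809 CPM), Ctsk (662 CPM, the others 1784 to 1931 CPM), Ctss (32.1 CPM, the others 98.1 to 100.8 CPM) and Lgmn (705 CPM, the others 1569.8 to 1693 CPM), and highest in Ctsl (349.8 CPM, the others 202 to 227 CPM). Its fibroblast markers summed to 5222 CPM, against 1351 to 1561 CPM in the other 3, and their part was not tested.

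In pDC replicate 1 was lowest in Ctsl (140.9 CPM, the others 653 to 819.9 CPM) and Lgmn (12.5 CPM, the others 31.9 to 38.9 CPM), and its fibroblast markers summed to 1180 CPM. PIB day 9 double positive replicate 5 was lowest in Ctsd (1137 CPM, the others 1801 to 2063 CPM) and Ctsk (288 CPM, the others 506 to 588 CPM). In C9a.SII day 6 double positive cells Ctsc was lowest in replicate 4 (70.5 CPM, the others 147.1 to 158.7 CPM) and Ctsl in replicate 2 (388 CPM, the others 464 to 480.0 CPM). Ctsh was highest in PIP day 9 tdT+ replicate 1 (110.7 CPM, the others 38.5 to 47.9 CPM) and lowest in C9a.SII day 9 tdT+ replicate 1 (89.6 CPM, the others 147.2 to 158.97 CPM). In the fibroblasts Ctsd was highest in C9a.MEF replicate 3 (752 CPM, the others 696 to 703 CPM), and Ctss was 0.0698 CPM in hCD2.MEF replicate 1, a single count, and 0 in the others. Between PIB and PIP cells the change of Lgmn from day 3 to day 9 differed by -1.27 on the log2 scale (edgeR adjusted p = 0.0223, interaction term).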

How the results depend on the processing

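Over 3113 values of single genes under an alternative, 2939 kept their direction and side of the threshold, 88 lost a call, 21 gained a call and 65 changed sign. The alternatives were DESeq2's size factors and Wald test, no filter on low counts, 1 fit over all groups, a replicate block and leaving out each library. In what follows the value with the main settings comes first, and shares are given where the count of called genes moved by over 1.5 times. The cause of a change was not tested. With 1 fit over all 41 groups the share of all genes tested that was called went from 6.21% to 1.89% in PIP day 9 against PIP day 3, 0.103% to 1.59% in C9a.SII day 9 against C9a.SII day 3, 6.55% to 5.78% in hCD2.SII day 9 against hCD2.SII day 3, 1.70% to 0.443% in PIB day 9 against PIB day 9 tdT+, 0.148% to 0.905% in C9a.SII day 9 against C9a.SII day 9 tdT+, 34.8% to 32.8% in cDC1 against cDC2, 15.8% to 16.5% in cDC1 against pDC, 34.9% to 43.6% in cDC2 against pDC, 38.2% to 45.6% in C9a.SII day 9 against pDC, 32.95% to 39.2% in hCD2.SII day 9 against pDC, 2.93% to 0.0696% in hCD2.MEF against C9a.MEF. That of the 10 genes went from 5 to 2 in PIP day 9 against PIP day 3, 3 to 0 in PIB day 9 against PIB day 9 tdT+. With no filter on low counts the share of all genes tested that was called went from 12.1% to 7.05% in PIB day 9 against PIB day 3, 6.21% to 3.40% in PIP day 9 against PIP day 3, 0.103% to 0.291% in C9a.SII day 9 against C9a.SII day 3, 6.55% to 4.69% in hCD2.SII day 9 against hCD2.SII day 3, 0.0122% to 0.339% in PIP day 9 against PIP day 9 tdT+, 0.148% to 0.471% in C9a.SII day 9 against C9a.SII day 9 tdT+, 34.8% to 23.8% in cDC1 against cDC2, 57.5% to 41.2% in PIB day 9 against cDC1, 38.2% to 25.005% in C9a.SII day 9 against pDC, 2.93% to 1.74% in hCD2.MEF against C9a.MEF. That of the 10 genes went from 5 to 1 in PIP day 9 against PIP day 3. With the replicate block the share of all genes tested that was called went from 6.21% to 3.31% in PIP day 9 against PIP day 3, 0.103% to 0.0129% in C9a.SII day 9 against C9a.SII day 3, 6.55% to 2.86% in hCD2.SII day 9 against hCD2.SII day 3, 0.0122% to 0.00610% in PIP day 9 against PIP day 9 tdT+, 0.148% to 0.0385% in C9a.SII day 9 against C9a.SII day 9 tdT+, 12.2% to 3.93% in hCD2.SII day 9 against hCD2.SII day 9 YFP+, 10.6% to 6.71% in the interaction. That of the 10 genes went from 5 to 2 in PIP day 9 against PIP day 3. With DESeq2's Wald test the share of all genes tested that was called went from 0.103% to 1.56% in C9a.SII day 9 against C9a.SII day 3, 0.0122% to 0.503% in PIP day 9 against PIP day 9 tdT+, 0.148% to 0.781% in C9a.SII day 9 against C9a.SII day 9 tdT+.

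The share of the gene that led per length without division by length was 27.9% for Ctsd in C9a.MEF, 24.8% for Ctsd in hCD2.MEF, 26.9% for Ctsd in PIB day 9, 53.5% for Ctsd in PIP day 9, 28.3% for Ctsd in C9a.SII day 9, 36.6% for Ctsd in hCD2.SII day 9, 37.8% for Ctss in cDC1, 36.5% for Ctss in cDC2, 15.8% for Ctss in pDC. The share of the gene that led per length with the length of all exons joined, an alternative chosen after seeing the data was 40.3% for Ctsd in C9a.MEF, 37.4% for Ctsd in hCD2.MEF, 41.5% for Ctsd in C9a.SII day 9, 57.4% for Ctss in cDC1, 55.6% for Ctss in cDC2, 37.8% for Ctss in pDC. Leaving out 1 library at a time, the share of all genes tested that was called ranged over 13.6% to 32.9% in hCD2.SII day 9 against hCD2.MEF, 3.92% to 7.05% in PIP day 9 against PIP day 3, 0% to 1.56% in C9a.SII day 9 against C9a.SII day 3, 3.35% to 15.7% in hCD2.SII day 9 against hCD2.SII day 3, 1.08% to 2.31% in PIB day 9 against PIB day 9 tdT+, 0.00588% to 0.221% in PIP day 9 against PIP day 9 tdT+, 0.0309% to 0.237% in C9a.SII day 9 against C9a.SII day 9 tdT+, 6.83% to 28.7% in hCD2.SII day 9 against hCD2.SII day 9 YFP+, 8.61% to 21.9% in cDC1 against pDC, 15.8% to 40.3% in cDC2 against pDC, 20.4% to 40.9% in hCD2.SII day 9 against pDC, 2.08% to 4.61% in hCD2.MEF against C9a.MEF, 6.08% to 12.8% in the interaction. Leaving out 1 library at a time, the number of the 10 genes called ranged over 1 to 5 in PIP day 9 against PIP day 3, 0 to 1 in hCD2.SII day 9 against hCD2.SII day 3, 1 to 4 in cDC2 against pDC, 0 to 1 in the interaction. The log2 Ctss to Ctsl difference ranged over 8.33 to 8.43 for PIP day 9 against C9a.MEF, 5.23 to 5.51 for C9a.SII day 9 against C9a.MEF, 6.29 to 6.67 for cDC1 against pDC, 7.76 to 7.90 for cDC2 against pDC, and lost an exact permutation p under 0.05 there because fewer libraries raise the smallest p.

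Signs changed only for log2 differences that were not called with the main settings. Ctsl in hCD2.SII day 9 against hCD2.MEF (from 0.13) was -0.024 with 1 fit over all 41 groups and -0.039 with no filter on low counts and -0.018 to 0.17 leaving out libraries. Ctsk in PIB day 9 against PIB day 3 (from -0.15) was 0.020 with 1 fit over all 41 groups and 0.012 with the replicate block and -0.23 to 0.010 leaving out libraries. Lgmn in PIB day 9 against PIB day 3 (from 0.015) was -0.018 to 0.11 leaving out libraries. Ctsb in C9a.SII day 9 against C9a.SII day 3 (from -0.097) was -0.30 to 0.051 leaving out libraries. Ctsc in C9a.SII day 9 against C9a.SII day 3 (from 0.086) was -0.14 to 0.36 leaving out libraries. Ctsb in hCD2.SII day 9 against hCD2.SII day 3 (from 0.032) was -0.13 with 1 fit over all 41 groups and -0.046 with no filter on low counts and -0.0086 with the replicate block and -0.055 to 0.097 leaving out libraries. Ctsh in hCD2.SII day 9 against hCD2.SII day 3 (from 0.043) was -0.13 with 1 fit over all 41 groups and -0.045 with no filter on low counts and -0.013 with the replicate block and -0.21 to 0.24 leaving out libraries. Ctsk in hCD2.SII day 9 against hCD2.SII day 3 (from 0.21) was -0.42 with the replicate block and -1.63 to 0.64 leaving out libraries. Ctss in hCD2.SII day 9 against hCD2.SII day 3 (from 0.13) was -0.041 with 1 fit over all 41 groups and -0.024 to 0.29 leaving out libraries. Ctsk in PIP day 9 against PIP day 9 tdT+ (from -0.13) was -0.27 to 0.099 leaving out libraries. Ctsl in PIP day 9 against PIP day 9 tdT+ (from 0.042) was -0.043 to 0.14 leaving out libraries. Ctsz in hCD2.SII day 9 against hCD2.SII day 9 YFP+ (from 0.12) was -0.040 with no filter on low counts and -0.056 to 0.22 leaving out libraries. Lgmn in hCD2.SII day 9 against hCD2.SII day 9 YFP+ (from 0.15) was -0.012 with no filter on low counts and -0.018 to 0.25 leaving out libraries. Ctsl in cDC1 against cDC2 (from 0.028) was -0.42 with 1 fit over all 41 groups and -0.22 with no filter on low counts and -0.38 to 0.17 leaving out libraries. Ctsz in cDC1 against pDC (from -0.77) was 0.15 with the replicate block. Ctsl in C9a.SII day 9 against pDC (from -0.28) was 0.032 with 1 fit over all 41 groups and 0.043 with the replicate block. Ctsl in hCD2.SII day 9 against pDC (from -0.063) was 0.21 with 1 fit over all 41 groups and 0.061 with DESeq2's Wald test and 0.061 with DESeq2 size factors and 0.31 with no filter on low counts and 0.69 with the replicate block and -0.21 to 0.20 leaving out libraries. Ctsa in PIB day 9 against C9a.SII day 9 (from -0.0051) was 0.15 with 1 fit over all 41 groups and 0.10 with no filter on low counts and -0.061 to 0.019 leaving out libraries. Ctsb in the interaction (from -0.22) was -0.40 to 0.14 leaving out libraries. Ctsz in the interaction (from -0.061) was 0.11 with no filter on low counts and -0.18 to 0.16 leaving out libraries.

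In 1 of 23 comparisons, hCD2.SII day 9 against hCD2.MEF, every same-numbered pair of libraries deviated together (correlation over 0.1), and the block changed no call of the 10 genes there. In the other comparisons not every pair passed 0.1, which cannot show that same-numbered libraries were unrelated. For PIB day 9 against PIB day 9 tdT+ the 5 pairs ran from 0.027 to 0.37. The block fits leave out libraries whose number the other group lacks. Over all 10 genes and comparisons the block ended 8 calls and added 4, 1 fit over all groups ended 13 and added 4, no filter on low counts ended 11, and DESeq2's Wald test added 2. Of 90 group means of a gene, 44 moved by over 1 SD between libraries with TMM-scaled totals, 58 with the totals of named identifiers only, and of 380 that left out 1 library none did. The share of genes in unnamed identifiers, the small number of libraries and the spread of the pDC libraries limit the precision. DESeq2's size factors moved the median of all genes by over 0.1 only in hCD2.SII day 9 against pDC, by 0.13 from -0.24 to -0.11.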
